A study of Mus musculus with 6 samples.

Results

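The miR-29 family was followed in small RNA libraries of mouse iBN cells, which grow in suspension and which the labels call granulocyte-macrophage progenitor. The cells hold a system for switching on PU.1, a transcription factor that drives macrophage and granulocyte fates and is the product of the Spi1 gene. Its members were taken by name, as all arms of the hairpins miR-29a, miR-29b-1, miR-29b-2 and miR-29c, and they make up 7 of the 1915 mature microRNA names in the deposited counts. One group was left uninduced (n = 3 libraries) and the other was induced for 72 hours with doxycycline at 1000 ng/ml (n = 3 libraries), with trials 1, 2 and 3 in each. All libraries came from the same PU.1-inducible line, grown with GM-CSF and serum, and doxycycline-treated cells without the inducible gene were not analysed here. Nothing in the labels states that different trials were different cultures, and the spread behind the p-values may therefore be technical.

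Mammalian genomes encode miR-29 in a pair of clusters, each with a copy of miR-29b, and each cluster is transcribed as a common precursor that is cut into hairpins. A hairpin yields a 3p and a 5p arm. In miR-29 the 3p arm is the one usually loaded into Argonaute, and the 5p arm is usually degraded. The 3p arms are known to repress messages of the DNA methyltransferases, of collagens and of the survival factor Mcl1. They are regarded as tumour suppressors in acute myeloid leukaemia, are repressed by Myc and NF-kB, and are known to rise in several differentiating tissues.

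The mature sequences are shown first because the family's shared targeting, and the reads that can be told apart, both follow from them. They were taken from RefSeq (GRCm38.p6), where all 7 names matched. Each is written 5′ to 3′ with the seed, bases 2 to 8, in capitals.
mmu-miR-29a-3p: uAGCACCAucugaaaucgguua
mmu-miR-29b-3p: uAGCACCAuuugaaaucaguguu
mmu-miR-29c-3p: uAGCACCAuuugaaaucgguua
mmu-miR-29a-5p: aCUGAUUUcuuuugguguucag
mmu-miR-29c-5p: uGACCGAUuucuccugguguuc
mmu-miR-29b-1-5p: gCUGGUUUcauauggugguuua
mmu-miR-29b-2-5p: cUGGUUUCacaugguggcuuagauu

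The 3p arms share the seed AGCACCA, which no other of the 1679 mature names in the RefSeq table has. The 5p arms have 4 different seeds and share theirs with no other member. Counting positions from the 5′ end, miR-29a-3p and miR-29c-3p differ by 1 base, C10U, and miR-29c-3p and miR-29b-3p by G18A, U21G and A22U, with miR-29b-3p 1 base longer. The bases at positions 9 to 11 are therefore UCU in miR-29a-3p and UUU in the other 2, a tract reported to be needed for fast turnover. miR-29b-3p ends in AGUGUU, a hexamer reported to direct it to the nucleus. Of all mature names in the table, 0.119% (2) end in these letters, the other being miR-92b-5p. Whether the authors' alignment allowed mismatches is not given in the sources used here, so a small exchange of reads between miR-29a-3p and miR-29c-3p cannot be told from true reads. With 86677 reads of miR-29a-3p and 5657 of miR-29c-3p over the 6 libraries, the same number of exchanged reads would be a larger part of miR-29c-3p.

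In GRCm38, the assembly also called mm10, the first cluster lies on the minus strand of chromosome 6. Mir29b-1 (31063023 to 31063093) is upstream in the direction of transcription and Mir29a (31062660 to 31062747) follows after 275 bases. In the GENCODE M21 annotation Mir29a overlaps no other gene, and Mir29b-1 shares 2 bases with an exon of the long non-coding RNA gene Gm27019. The second cluster lies on the plus strand of chromosome 1, with Mir29b-2 (195037040 to 195037120) and Mir29c (195037547 to 195037634) separated by 426 bases. Both of these hairpins lie within an exon of the non-coding host gene A330023F24Rik (194976375 to 195037904), opposite the untranslated part of an exon of Cd46. Since miR-29b-3p is the same in both hairpins, its reads have no cluster. The deposited table lists it once for each hairpin with nearly the same counts (6797 and 6801 reads over the 6 libraries), so the same reads were entered for both.

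With 1 entry kept per name, the libraries held 8697384 to 13946613 reads. The family took 0.131% to 0.197% of them. In every library miR-29a-3p was the major product, at 86.3% ± 0.74 (SD over 6 libraries) of the family's reads, followed by miR-29b-3p at 6.81% ± 0.40 and miR-29c-3p at 5.62% ± 0.59. The 4 5p arms each took less than 1%. Levels are given below in CPM, counts scaled to library size with TMM factors. Every mature molecule is read once whatever its length, but adapter ligation depends on sequence, so ratios between microRNAs are ratios of reads.

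mmu-miR-29a-3p, the main product of the chromosome 6 cluster, ranked 65 of all 1915 names by mean CPM. It stood at 1382, 1634 and 1194 CPM in the uninduced and 1376, 1420 and 1231 CPM in the induced libraries of trials 1, 2 and 3. The groups overlapped, with trial 2 highest and trial 3 lowest in both. The log2 change was -0.06 (SE 0.14, 95% interval -0.38 to 0.25, edgeR adjusted p = 0.844). In such bulk libraries, fewer cells with a microRNA and less of it per cell cannot be told apart.

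mmu-miR-29b-3p, the product common to both clusters, had 115, 131 and 97.7 CPM uninduced and 95.4, 114 and 96.4 CPM induced. Each induced library lay below the uninduced library of its trial, but the groups overlapped. Its log2 change was -0.17 (SE 0.15, 95% interval -0.51 to 0.18, edgeR adjusted p = 0.598).

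mmu-miR-29c-3p, the most abundant arm that comes from the chromosome 1 cluster alone, had 74.6, 109 and 89.8 CPM uninduced and 85.2, 89.0 and 86.4 CPM induced. The induced libraries lay within the range of the uninduced ones. The log2 change was -0.07 (SE 0.16, 95% interval -0.43 to 0.29, edgeR adjusted p = 0.847). Over these 3 seed-sharing arms, the 95% intervals of the log2 change ran from -0.51 to 0.29 in this fit, which leaves out the trial. With the trial as a block the standard errors were smaller. The log2 changes of miR-29a-3p, miR-29b-3p and miR-29c-3p were then -0.06 (SE 0.08), -0.16 (SE 0.09) and -0.05 (SE 0.10).

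**Figure D1:**
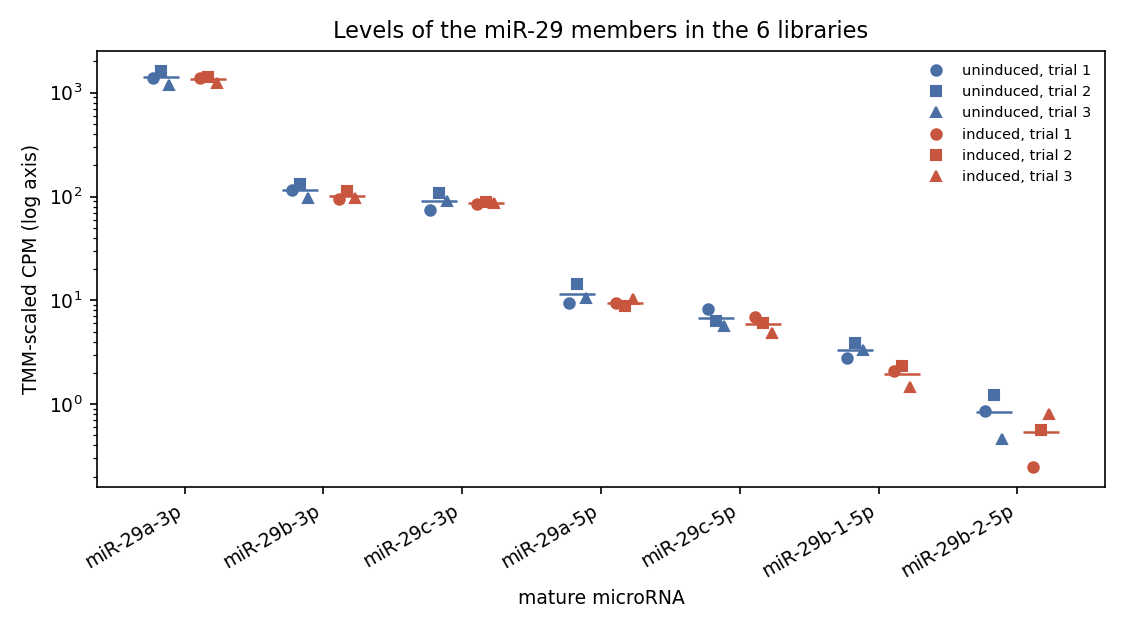
TMM-scaled CPM of the 7 mature miR-29 microRNAs (log axis) in each library, with uninduced libraries in blue, induced in red, a marker shape for each trial and a line at the group mean. miR-29a-3p sits between 1194 and 1634 CPM in all 6 libraries, more than 10 times above every other member, and the groups are apart for miR-29b-1-5p alone.

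The 5p arms were far rarer. mmu-miR-29a-5p had 9.50, 14.3 and 10.6 CPM uninduced and 9.39, 8.75 and 10.4 CPM induced (78 to 141 reads a library), with a log2 change of -0.27 (SE 0.20, edgeR adjusted p = 0.505). Nearly all of this difference came from trial 2, whose log2 change was -0.71 against -0.02 and -0.04 in trials 1 and 3. mmu-miR-29c-5p had 8.33, 6.34 and 5.68 CPM uninduced and 6.98, 6.05 and 4.85 CPM induced, with a log2 change of -0.19 (SE 0.23, edgeR adjusted p = 0.681). Its groups overlapped as well, with trial 1 highest and trial 3 lowest in both. Leaving out 1 library moved the log2 change of miR-29a-5p between -0.41 (without uninduced replicate 1) and -0.07 (without uninduced replicate 2), and that of miR-29c-5p between -0.31 (without induced replicate 1) and -0.03 (without uninduced replicate 1).

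mmu-miR-29b-1-5p, the minor arm of the chromosome 6 copy of miR-29b, was the only member whose groups did not overlap. It had 26, 35 and 36 reads uninduced and 25, 21 and 20 reads induced, which gave 2.78, 3.89 and 3.30 CPM against 2.08, 2.35 and 1.47 CPM. The log2 change was -0.77 (SE 0.27, 95% interval -1.38 to -0.16), with -0.42, -0.72 and -1.17 in trials 1, 2 and 3. It did not pass the test, with an edgeR p of 0.0182 before and 0.137 after Benjamini-Hochberg adjustment over all 525 microRNAs tested. With the trial as a block the edgeR adjusted p was 0.0513. The ratio of summed reads per library total was 0.585 (95% exact interval 0.421 to 0.808). This interval pools the reads of a group and covers the counting error of reads only, not the spread between libraries. No molecular identifiers are described, so copies of the same molecule may be among the reads.

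mmu-miR-29b-2-5p, the minor arm of the chromosome 1 copy, was too rare for the filter on low counts and was not tested. Its 8, 11 and 5 uninduced reads stood against 3, 5 and 11 induced reads, with trial 3 going up and trials 1 and 2 down. The ratio of summed reads per library total was 0.680 (95% exact interval 0.352 to 1.30, again for pooled reads and counting error only).

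No member was called. At an adjusted edgeR p under 0.05 there were 0 of the 6 tested members, against 32 of all 525 tested microRNAs (6.10%). With a lower level in induced cells and an unadjusted edgeR p under 0.05 there was 1 of 6, against 9.33% of all tested. Induced libraries lay wholly below the uninduced ones for 1 of 6, against 11.6%. With the trial as a block in edgeR, 0 of 6 passed against 21.7%. DESeq2, run without the block, also passed 0 of 6, against 37 of all 525 tested microRNAs. All 6 log2 changes were below 0, with a median of -0.18, while the median over all tested microRNAs was 0.02. The median size of the change, whatever its sign, was 0.18 for the members and 0.22 for all tested. miR-29a-5p, miR-29b-3p, miR-29b-1-5p and miR-29c-5p, 4 of the 6 tested, were lower in each of the 3 trials, against 29.5% of all tested microRNAs. The members were measured in the same libraries and are not independent of each other.

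**Figure D2:**
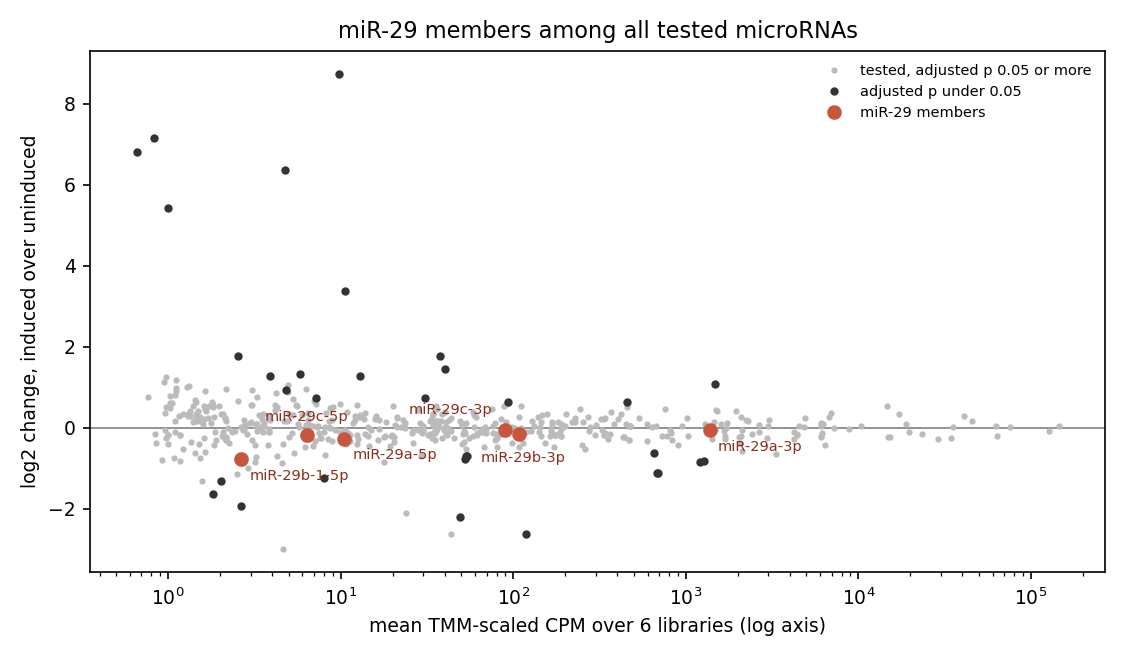
Mean TMM-scaled CPM over the 6 libraries (log axis) against log2 change, induced over uninduced, for the 525 tested microRNAs, with those past the adjusted threshold in black and the 6 tested miR-29 members in red. The members span the range from 2.64 to 1373 CPM and lie between -0.77 and -0.06, within the cloud of microRNAs that did not pass.

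The negative sign of miR-29a-3p and miR-29c-3p rested on 1 library. The uninduced library of trial 2 held the highest uninduced level of 6 of the 7 members. Without it, the log2 change became 0.07 for miR-29a-3p and 0.09 for miR-29c-3p (edgeR adjusted p = 0.875 and 0.871), and -0.05 for miR-29b-3p. That of miR-29b-1-5p was -0.64 without this library and lay between -0.92 and -0.62 whichever library was left out. Counting all 7 members, 6 were lower in trial 1, 7 in trial 2 and 5 in trial 3.

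**Figure D3:**
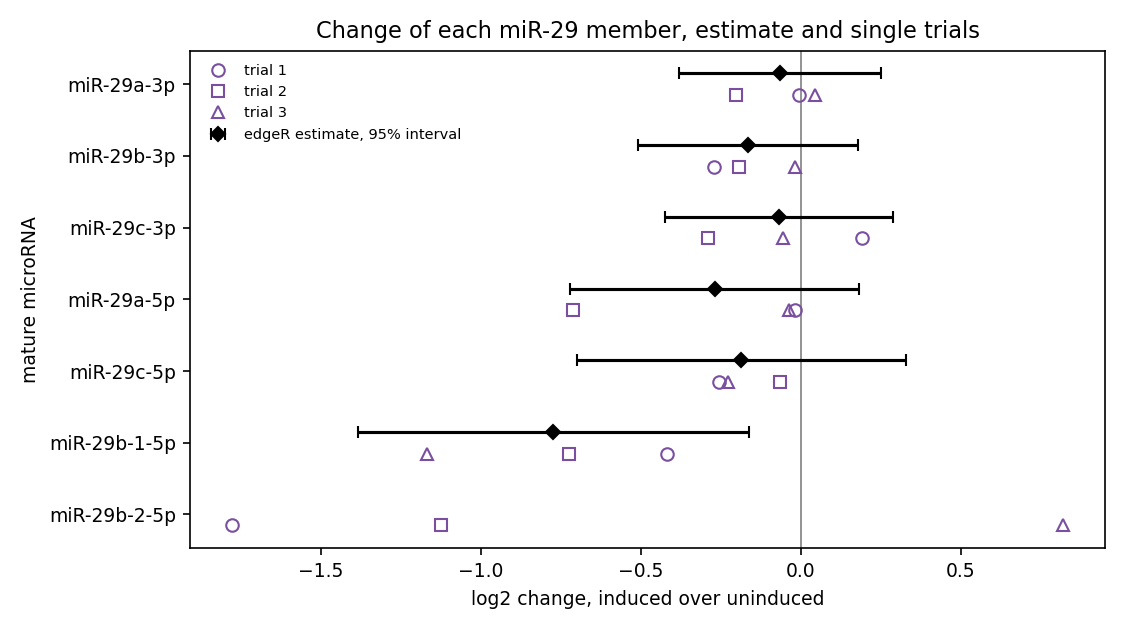
Log2 change, induced over uninduced, of each miR-29 member, with the edgeR estimate and its 95% interval as a black diamond and the single trials as open symbols. The interval crosses 0 for every tested member but miR-29b-1-5p, and the untested miR-29b-2-5p scatters from -1.78 to 0.82.

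The clusters were next compared within each library, where the scaling of the library cancels. The log2 ratio of miR-29c-3p to miR-29a-3p, the most abundant arms that belong to the chromosome 1 or the chromosome 6 cluster alone, averaged -3.95 ± 0.24 uninduced and -3.95 ± 0.10 induced (SD, n = 3 each). The difference of 0.00 was made of 0.20, -0.09 and -0.10 in trials 1, 2 and 3, and the exact two-sided permutation p was 1.0. With 3 libraries against 3 this test cannot go below 0.10, so none of the ratios could pass a threshold of 0.05. The 5p arms of the same hairpins, miR-29c-5p over miR-29a-5p, had log2 ratios of -0.75 ± 0.51 and -0.68 ± 0.36 (SD, n = 3 each, exact permutation p = 0.9). Neither pair of arms showed a shift between the clusters beyond the spread of the libraries. Any exchange of reads between miR-29a-3p and miR-29c-3p would also enter their ratio and could not be assessed.

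The 5p arms of miR-29b are the only reads that tell its copies apart. Of these, 97 of 121 came from the chromosome 6 copy in uninduced cells (80.2%, 95% exact Clopper-Pearson interval 71.9 to 86.9%) and 66 of 85 in induced cells (77.6%, 67.3 to 86.0%). These intervals pool the reads of a group and cover counting error only. In single libraries the share ran from 64.5% to 89.3%, wider than either interval. The log2 ratio of miR-29b-2-5p to miR-29b-1-5p differed between the groups by 0.11, with -1.22, -0.34 and 1.90 in trials 1, 2 and 3 (exact permutation p = 1.0). At 26 to 46 reads a library, a moderate shift in copy use was not detectable. The mature arms of the copies are cut at different places, miR-29b-1-5p starting 1 base earlier when the arms are aligned, and differ by U11C and U19C in the numbering of miR-29b-1-5p.

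The arms were compared in the same way. The 3p arm held 99.1% to 99.4% of the reads of miR-29a, 96.2% to 97.7% of those of miR-29b (both copies together) and 90.0% to 94.7% of those of miR-29c. Among 137 other hairpins with at least 100 reads on each arm, the more abundant arm held a median of 90.5%. The log2 ratio of miR-29a-3p to miR-29a-5p was 6.94 ± 0.21 uninduced and 7.14 ± 0.23 induced, and that of miR-29c-3p to miR-29c-5p was 3.74 ± 0.51 and 3.87 ± 0.27 (SD, n = 3 each, exact permutation p = 0.2 and 0.8). Their groups overlapped. The miR-29a ratio was higher by 0.01, 0.51 and 0.08 in trials 1, 2 and 3, and its mean difference of 0.20 lay between 0.10 and 0.32 when 1 library was left out.

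The log2 ratio of miR-29b-3p to the sum of both 5p arms was 4.97, 4.66 and 4.68 in the uninduced and 5.33, 5.27 and 5.38 in the induced libraries. The groups did not overlap, and the difference of 0.56 was made of 0.37, 0.61 and 0.70 in trials 1, 2 and 3. The exact permutation p was 0.1, the smallest this design allows, and 0.467 after Benjamini-Hochberg adjustment over the 7 ratios. Of the 137 other hairpins, 94.9% had a smaller difference in arm ratio, and the groups were apart for 4.38%. These hairpins were not matched to miR-29b in the reads of the rarer arm. The 5p arms supplied 28 to 46 reads to this ratio in 5 of the libraries and 26 in the other. Of these, 97 of 121 uninduced and 66 of 85 induced reads were miR-29b-1-5p. The ratio therefore largely repeats the lower level of that arm and is not a separate result.

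**Figure D4:**
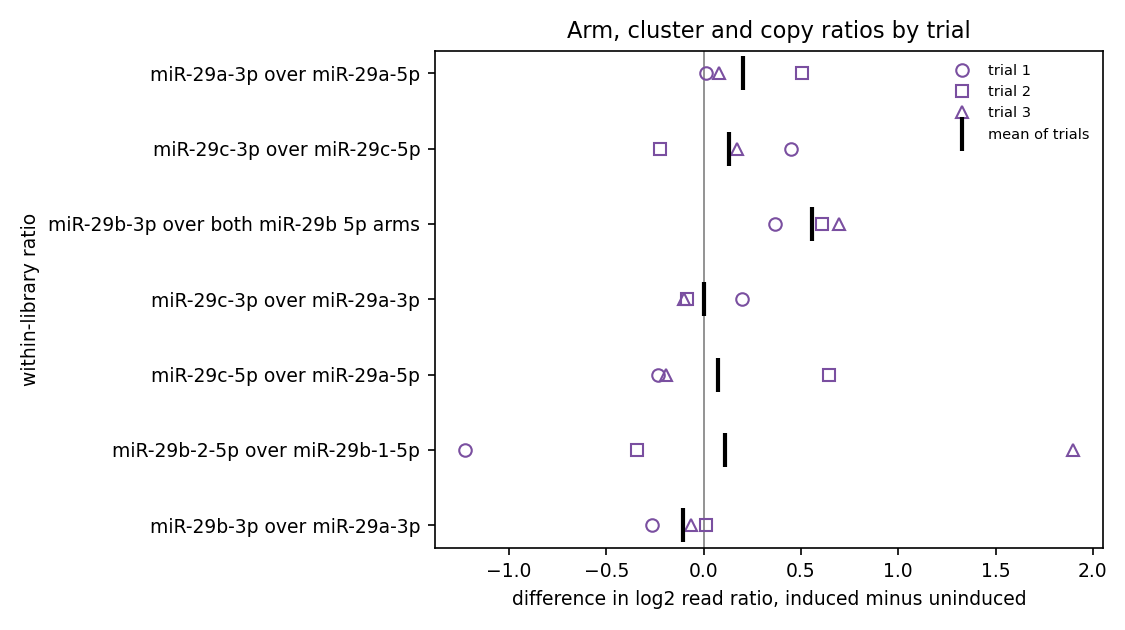
Difference between induced and uninduced libraries of the same trial in the log2 ratio of 2 read counts, for 7 ratios of arms, clusters and copies of miR-29, with open symbols for trials and a bar at their mean. miR-29b-3p over its 5p arms lies above 0 in all trials (0.37 to 0.70), while the copy ratio spreads from -1.22 to 1.90.

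Ratios of miR-29b-1-5p to other members were added after its values were seen and were not tested. It was set against the other chromosome 6 products and against miR-29b-3p, which is common to both clusters. Its log2 ratio to miR-29a-3p averaged -8.70 ± 0.23 uninduced and -9.41 ± 0.24 induced, and that to miR-29b-3p -5.09 ± 0.24 and -5.69 ± 0.27 (SD, n = 3 each). Both were lower in every trial, and the groups were apart. Since miR-29b-1-5p was itself lower in every trial with its groups apart, these ratios largely repeat its lower level and are not a separate result. Against miR-29a-5p, the other minor arm of the cluster, the differences were -0.40, 0.00 and -1.11 in trials 1, 2 and 3. The groups were barely apart, with trial 2 at -1.867 uninduced and -1.868 induced. In trial 2 both minor arms thus moved by nearly the same amount.

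The levels kept the same order in all 6 libraries, from miR-29a-3p through miR-29b-3p, miR-29c-3p, miR-29a-5p, miR-29c-5p and miR-29b-1-5p to miR-29b-2-5p. miR-29a-3p exceeded miR-29b-3p by 12.0 to 14.4 times. The next neighbours were closer, with miR-29b-3p 1.09 to 1.54 times above miR-29c-3p, and the CPM ranges of these 2 overlapped across libraries. miR-29a-5p lay 1.14 to 2.26 times above miR-29c-5p.

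Likeness of pattern was measured as the root-mean-square difference between centred log2 CPM over the 6 libraries, among 319 other microRNAs of at least 10 CPM. Nearest to miR-29a-3p were miR-3970 (0.064), miR-34a-5p (0.064), a target of p53, and miR-1839-5p (0.069), against a median of 0.244. Nearest to miR-29c-3p were miR-140-5p (0.097), a cartilage microRNA, miR-320-3p (0.104) and miR-297b-5p (0.108). miR-29b-3p differed from miR-29a-3p by 0.086 and miR-29c-3p from it by 0.151. None of the 6 microRNAs named here passed the test between groups (edgeR adjusted p of 0.570 to 0.909). That is largely set by their choice, since they were picked for likeness to arms that hardly differed between groups. The measure also takes in differences between trials.

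Other microRNAs that are, like miR-29, reported as repressed by Myc had both signs. Of 21 tested, 0 rose and 1 fell (3.43% and 2.67% of all tested microRNAs), miR-23b-3p with a log2 change of -0.84 (SE 0.20), and the median was 0.04 against 0.02 over all tested microRNAs. Abundant members such as miR-16-5p (0.17, SE 0.10), miR-22-3p (0.28, SE 0.11) and miR-26a-5p (0.02, SE 0.10) did not pass without the block. With the trial as a block 4 were higher (miR-22-3p, miR-30b-5p, miR-30d-5p and miR-146a-5p) and 2 lower (miR-23b-3p and let-7a-5p), against 10.7% and 11.0% of all tested. The microRNAs that share with miR-29 the reported targeting of DNA methyltransferases, miR-148a-3p, miR-148b-3p and miR-152-3p, had log2 changes of -0.20 (SE 0.13), 0.03 (SE 0.15) and -0.03 (SE 0.16), and 0 of 3 passed with or without the block (21.7% and 6.10% of all tested).

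General blood-cell markers were present, with miR-142a-3p, miR-142a-5p and miR-223-3p summing to 71000 to 90000 CPM uninduced and 73490 to 91170 CPM induced. Most of this sum was miR-142a-5p, with a mean of 62466 CPM. The mean of miR-223-3p was 6039 CPM, and its log2 changes were -0.34, 0.09 and -0.63 in trials 1, 2 and 3. This list was not chosen to mark the labelled progenitor type. Erythroid markers summed to less than 1 CPM in every library. Neural markers, of which 0 were tested, summed to 0.22 to 0.46 CPM uninduced and 0.91 to 1.46 CPM induced, all of it miR-9-5p. Of 4 stromal markers, a class of cells rich in miR-29, 2 were tested and 0 passed, while with the trial as a block both, miR-143-3p and miR-145a-5p, were lower (2.67% of all tested were lower without and 11.0% with the block). Their sum was 162 to 201 CPM uninduced and 110 to 168 CPM induced, and miR-214-3p had 0 reads. Of 4 epithelial markers 3 rose, with or without the block (10.7% and 3.43% of all tested). These were miR-141-3p, miR-200b-3p and miR-200c-3p. The sum of the 4 was 31.4 to 38.9 CPM uninduced and 79.0 to 99.2 CPM induced. Their part in the miR-29 values was not tested.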

How the data were processed

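Per the labels' protocols, miRNeasy columns gave the RNA, and TruSeq small RNA libraries were sequenced as single reads. The submitters' processing notes list DESeq2 2.1.8.0, Trim Galore 0.4.0 and build mm10, while miRBase is named in the design text. The read counter and miRBase release were not given in the sources used here. The authors deposited raw read counts in 2061 entries, and 1 entry per mature name, that with the highest total, was kept. The deposited CPM equal the counts per library total within 0.005 and were not used further.

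The test was edgeR 4.0.16 under R 4.3.3 (TMM, filterByExpr, robust glmQLFit, glmQLFTest, two-sided, Benjamini-Hochberg at 0.05), with the group alone in the model. The filter kept 525 names with 99.987% of the reads. The code was tested on simulated data. Standard errors and intervals come from the quasi-likelihood F statistic. Ratios had 0.5 reads added to each count and were compared by exact permutation over libraries. Deviations from group means of libraries of the same trial correlated by 0.33, 0.45 and 0.53 across microRNAs, so the trials pair the libraries. Blocked fits, DESeq2 1.42.0, other scalings, filters and entries, and left-out libraries were tried as alternatives. The text names all members, the 3 microRNAs nearest to miR-29a-3p and to miR-29c-3p, and from each list those that passed and up to 3 abundant examples. Members and lists were chosen with earlier results of these data known. A count of 0 in a library allows up to 0.215 to 0.345 CPM (3 reads).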

Additional observations from a re-analysis of the deposited data

How the results depend on the processing

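No miR-29 member passed the adjusted threshold in any of the 16 alternatives run for the fit (0 of the members in each), and the lowest adjusted p was 0.0513, for miR-29b-1-5p with the replicate block. The count over all microRNAs went from 32 to 114 with the block, lay between 12 and 41 without 1 library, and with the block was 66 without trial 1, 60 without trial 2 and 12 without trial 3. Of 96 alternative values of single members, 92 kept their direction. The exceptions were miR-29a-3p and miR-29c-3p, at 0.069 and 0.088 without uninduced replicate 2 and at 0.015 and 0.062 with the replicate block and without trial 2. Without 1 library the log2 change ranged from -0.18 to 0.069 for mmu-miR-29a-3p and from -0.21 to 0.088 for mmu-miR-29c-3p. Of 70 alternative ratio differences 60 kept their sign, and the others arose when 1 library was left out. Without 1 library, the difference ranged from -0.16 to 0.31 for miR-29c-3p over miR-29c-5p, from -0.13 to 0.11 for miR-29c-3p over miR-29a-3p, from -0.14 to 0.35 for miR-29c-5p over miR-29a-5p, and from -0.42 to 0.60 for miR-29b-2-5p over miR-29b-1-5p. For miR-29b-3p over its 5p arms it ranged from 0.50 to 0.65. The paired test by trial, exact sign flips with the replicate block, cannot go below 0.25, the value it gave for miR-29b-3p over its 5p arms and for miR-29a-3p over miR-29a-5p. The cause of these sign changes was not tested. Depth limits the 5p arms most, above all miR-29b-2-5p with 3 to 11 reads a library.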

Other observations

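Over the 137 other hairpins with at least 100 reads on each arm, the median size of the difference in log2 arm ratio between induced and uninduced libraries was 0.14, and the groups were apart for 6 of them, the hairpins of let-7e, miR-98, miR-139, miR-212, miR-425 and miR-3061. The largest of these 6 were miR-139, whose ratio of the 3p to the 5p arm differed by 1.14 on the log2 scale, and let-7e with 1.00. In both, as in miR-29b, the rarer arm holds a small share of the reads, since the more abundant arm held 98.5% and 98.0%. These hairpins were named after their values were seen, and no test was made.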
